A study of Mus musculus with 78 samples.

Results

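The transcripts described here are 9 RNAs encoded in mitochondrial DNA (mtDNA), chosen by name out of the 55401 genes of each count table. They are the 12S and 16S ribosomal RNAs mt-Rnr1 and mt-Rnr2, the 6 heavy-strand mRNAs mt-Nd1, mt-Nd2, mt-Co1, mt-Nd4, mt-Nd5 and mt-Cytb, and the light-strand mRNA mt-Nd6. The other 28 genes of mtDNA comprise 6 mRNAs and 22 tRNAs. All 9 members passed the filter on low counts in all 3 tables.

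The cells were E14TG2a mouse embryonic stem cells, a line grown in 2i medium, in which both copies of Zfp143 carried an FKBP degron. Homozygous clones were used, in a number that the sources do not state, and every group, controls included, carried the tag. Treatment with 500 nM of the degrader dTAG-V1 was used to deplete ZFP143, a zinc-finger transcription factor of the nucleus, and DMSO was the control. Nascent RNA was measured by TT-seq, in which RNA made during a 10 min pulse of 2 mM 4-thiouridine is enriched and sequenced, in DMSO and at 3 times of dTAG treatment, 2, 6 and 24 h. Steady-state poly(A) RNA was measured by RNA-seq in DMSO and after 24, 48 and 72 h of dTAG. A further RNA-seq table held cells kept for 24 h in DMSO or dTAG, and cells then washed and given all-trans retinoic acid (RA) for 24 h in N2B27 medium with the same DMSO or dTAG. The depleted RA libraries had therefore seen 48 h of dTAG, and the effect of RA and the change of medium cannot be told apart. Each of the 12 groups had 2 biological replicates. All libraries of a table were fitted together, so p-values rest on the spread between replicates pooled over the groups of that table. With 2 replicates per group, few samples measure that spread.

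Library totals were 9721570 to 16532100 counts in TT-seq, 10261900 to 15316700 in the RNA-seq time course and 13890800 to 27089000 in the RA table. The 9 members took 0.793% to 1.45%, 0.760% to 1.92% and 0.394% to 2.08% of them. The Zfp143 transcript, from the tagged gene, stood at 71.3 and 74.4 CPM (counts scaled to a common library size) in the TT-seq DMSO libraries and at 169 and 162 CPM after 24 h, and it rose in each comparison of dTAG with DMSO, by 1.09 to 1.38 on the log2 scale (edgeR, highest adjusted p = 0.00104). It does not measure the degraded protein, which the count tables do not hold. All 8 stem cell markers, among them Pou5f1, Nanog and Sox2, were detected in every library, with a summed level of 3660 to 6852 CPM in libraries without RA. In bulk samples, fewer cells of a type, fewer mtDNA copies per cell and less RNA per cell cannot be told apart.

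Mitochondria keep a small circular genome that is transcribed by its own polymerase, POLRMT, together with TFAM and TFB2M. Both strands are read into long precursors, from which tRNAs are cut out to release the rRNAs and mRNAs between them. MTPAP then adds poly(A) tails to most of the mRNAs, and the LRPPRC and SLIRP proteins protect them. The ND mRNAs code for subunits of respiratory complex I, mt-Cytb for the cytochrome b of complex III and mt-Co1 for the catalytic subunit of complex IV, while the rRNAs form the core of the mitochondrial ribosome. In human cells the ND6 mRNA carries little or no poly(A) tail, and the rRNAs have short ones.

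The 3′ ends of the 7 mRNAs differ in what follows them on the same strand. The last 30 bases of each coding gene are shown on the sense strand, from the mm10 mitochondrial sequence held by RefSeq, with the stop codon, or the part of it that the DNA encodes, in capitals:
mt-Nd1: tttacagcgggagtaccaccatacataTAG
mt-Nd2: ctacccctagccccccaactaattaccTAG
mt-Nd4: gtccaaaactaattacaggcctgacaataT
mt-Cytb: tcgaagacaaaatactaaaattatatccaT
mt-Co1: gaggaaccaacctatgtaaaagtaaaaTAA
mt-Nd5: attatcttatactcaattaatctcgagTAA
mt-Nd6: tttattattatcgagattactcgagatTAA

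The genes mt-Nd1 (MT 2751 to 3707, plus strand), mt-Nd2 (3914 to 4951), mt-Nd4 (10167 to 11544) and mt-Cytb (14145 to 15288) end within 2 bases of a tRNA of their own strand, mt-Ti, mt-Tw, mt-Th and mt-Tt. The DNA of mt-Nd4 and mt-Cytb encodes only the first base of the stop codon, which polyadenylation is known to complete. mt-Co1 (5328 to 6872) ends 69 bases before its next same-strand gene, mt-Td, with the opposite-strand tRNA mt-Ts1 between. mt-Nd5 (11742 to 13565) is separated from mt-Cytb by 579 bases that hold mt-Nd6 (13552 to 14070, minus strand) and the tRNA mt-Te, both on the other strand. The coding ends of mt-Nd5 and mt-Nd6 overlap by 14 bases, shown in capitals within MT 13544 to 13573, first as mt-Nd5 and then as mt-Nd6 is read:
mt-Nd5 sense: atactcaaTTAATCTCGAGTAAtctcgata
mt-Nd6 sense: tatcgagaTTACTCGAGATTAAttgagtat

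The rRNA genes lie at MT 70 to 1024 (mt-Rnr1) and 1094 to 2675 (mt-Rnr2), on the plus strand. Levels set between genes depend on where reads can be placed uniquely, since nuclear copies of mtDNA share its sequence. Of all 32-base windows, 100% of those in mt-Rnr1 and mt-Nd1 were unique in the genome, against 83.7% to 94.2% in mt-Rnr2, mt-Nd2, mt-Nd5, mt-Nd6 and mt-Cytb and 37.1% and 37.2% in mt-Co1 and mt-Nd4. A run of 3036 bases, MT 6394 to 9429, held no unique window. The 6 remaining mRNAs, mt-Co2, mt-Atp8, mt-Atp6, mt-Co3, mt-Nd3 and mt-Nd4l, had at most 0.946% unique windows and 0 to 7 counts per library, so no change could be measured for them in these counts.

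Nascent and steady-state RNA of control cells differed in the makeup of the mtDNA transcripts. Counts per kb of each member were taken as a share of the sum over the 9 members. In the TT-seq DMSO libraries the 2 rRNAs held 43.3% ± 1.11 (SD, n = 2) of that sum, the 6 heavy-strand mRNAs 49.8% ± 0.712 and mt-Nd6 6.89% ± 0.402. In the RNA-seq DMSO libraries of the time course the heavy-strand mRNAs held 96.2% ± 1.16, the rRNAs 3.52% ± 1.31 and mt-Nd6 0.304% ± 0.147. The DMSO libraries of the RA table gave 97.5% ± 0.293, 2.245% ± 0.280 and 0.228% ± 0.0122 in the same order. The RNA-seq kit selected poly(A) RNA and the TT-seq kit did not, so RNA stability and tail length cannot be told apart in this contrast, and no test was made across tables.

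The order of single members differed between the assays. By annotated length mt-Rnr1 was the highest per kb in nascent RNA, with 22.8% ± 0.0651 of the sum in TT-seq, and mt-Rnr2 followed with 20.5% ± 1.18, a gap within 2 SDs. Among the mRNAs the nascent order was mt-Nd1 at 13.7% ± 0.400, mt-Nd2 at 9.545% ± 0.350, mt-Cytb at 8.48% ± 0.847, mt-Co1 at 7.23% ± 0.115, mt-Nd5 at 7.16% ± 0.738, mt-Nd6 at 6.89% and mt-Nd4 at 3.69% ± 0.00765. From mt-Nd2 down to mt-Nd6 each level lay within 2 SDs of its neighbours. In steady-state RNA mt-Co1 led with 39.5% ± 0.373 in the time course and 33.7% in the RA table, followed by mt-Nd1 with 23.0% ± 0.938 and 24.3%. mt-Cytb came next with 13.0% ± 0.324 and 18.4%, and mt-Nd4 was the lowest heavy-strand mRNA by annotated length in both, with 4.64% ± 0.264 and 5.57%. With lengths cut to their uniquely placeable part, mt-Co1 was the highest mRNA in nascent RNA too, at 15.6%, and held 59.6% and 53.3% in the 2 RNA-seq tables. On these lengths mt-Nd4 was no longer the lowest heavy-strand mRNA. It had 7.92% in TT-seq and 6.98% and 8.77% in the RNA-seq tables, above the 6.84%, 5.16% and 4.64% of mt-Nd5. The rRNAs in TT-seq then stood at 18.7% ± 1.04 for mt-Rnr2 and 18.2% ± 0.0816 for mt-Rnr1, so their order also depended on the length used.

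**Figure D1:**
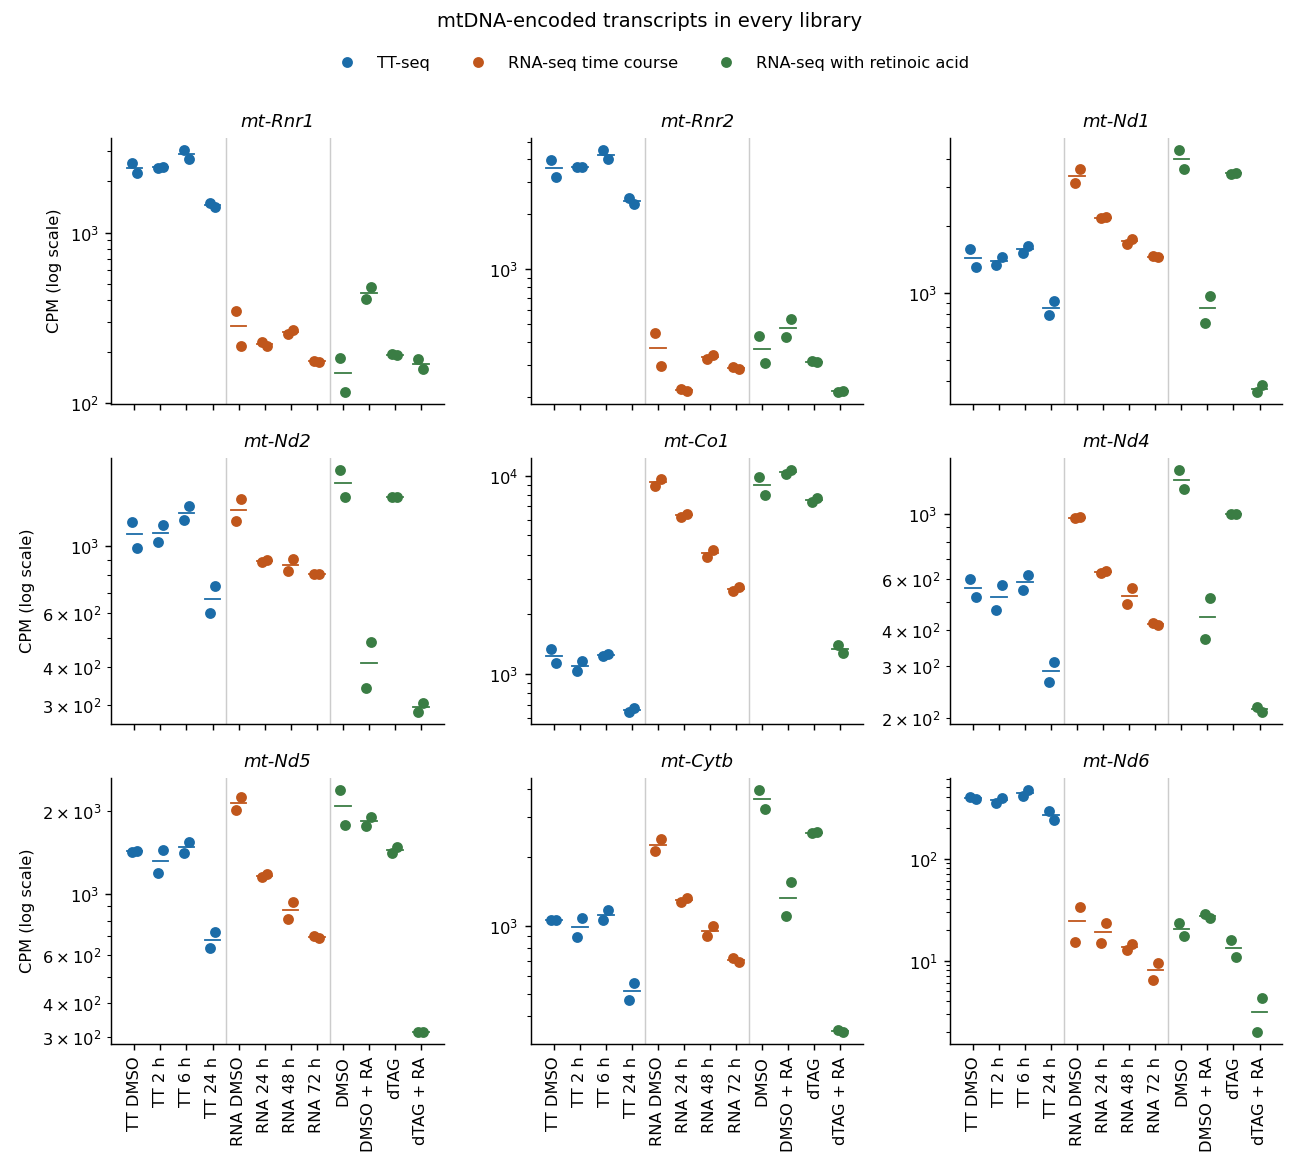
CPM (log scale) of each mtDNA-encoded transcript in all 24 libraries, 1 panel per transcript; points are single libraries, short lines group means, and colours the 3 tables. The rRNAs and mt-Nd6 stand far lower in poly(A) RNA-seq than in TT-seq, and most panels drop at TT-seq 24 h, along the RNA-seq time course and in dTAG with RA.

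Nascent mtDNA transcripts were not called as changed after 2 or 6 h of dTAG. At 2 h, 0 of 9 members were called, where 2.43% of the 17870 tested genes were called lower and 0.168% higher (edgeR quasi-likelihood test, with a call needing a log2 change beyond 0.5 either way and an adjusted p under 0.05). At 6 h the count was again 0, against 2.83% lower and 0.397% higher. No member had an unadjusted p under 0.05 at either time, and DESeq2 also called 0. The log2 changes ran from -0.16 (mt-Co1) to 0.021 (mt-Rnr2) at 2 h, with a median of -0.074, and from 0.018 (mt-Co1) to 0.27 (mt-Rnr1) at 6 h, with a median of 0.12. The median over all genes was 0.0058 and 0.010.

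After 24 h of dTAG 7 of the 9 members were lower in nascent RNA, where 4.09% of all tested genes were called lower and 2.02% higher. The median over the members was -0.75, and over all genes 0.0075. The 7 members were all 6 heavy-strand mRNAs and the 12S rRNA. Under the rule used for RNA-seq, which tests against a fold change of 1.5, edgeR called 0 of the 9 and 116 of all genes lower. All 3 TT-seq time points share the same DMSO libraries. In all 9 members both libraries at 24 h stood below the DMSO pair. The share of all genes whose groups stood apart was not counted, here or below, so such statements are a description. Among the marker lists, the 5 primitive endoderm markers summed to 9.52 to 12.4 CPM in DMSO and 19.5 to 20.4 CPM at 24 h and the 4 primed epiblast markers to 80.7 to 83.1 CPM and 65.1 to 78.6 CPM, without overlap, while the ranges of the other lists overlapped. Their part in the change was not tested.

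mt-Nd5, a membrane subunit of complex I, had the greatest decrease, from 1424 and 1432 CPM in DMSO to 634 and 729 CPM at 24 h, a log2 change of -1.07 (-1.40 to -0.74 as 95% interval, edgeR adjusted p = 0.00435). mt-Cytb fell from 1061 and 1062 CPM to 472 and 560 CPM (-1.04, -1.38 to -0.71, adjusted p = 0.00526). In both genes the groups stood far apart relative to the gap within a group. mt-Nd4, another complex I subunit, fell from 598 and 518 CPM to 265 and 312 CPM (-0.95, adjusted p = 0.00907), and mt-Co1 from 1329 and 1129.6 CPM to 642 and 671 CPM (-0.90, adjusted p = 0.00614). For mt-Nd1 the pair went from 1569.9 and 1309 CPM to 794 and 922 CPM (-0.75, adjusted p = 0.021), and for mt-Nd2 from 1195 and 986 CPM to 600.2 and 740 CPM (-0.70, adjusted p = 0.0389). These 2 genes open the mRNA part of the heavy-strand precursor, and their intervals overlapped those of mt-Nd5 and mt-Cytb.

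The 12S rRNA mt-Rnr1 fell from 2555 and 2230 CPM to 1485 and 1419 CPM (-0.72, adjusted p = 0.0189). The 16S rRNA mt-Rnr2 had 3976 and 3186 CPM in DMSO and 2450.3 and 2266 CPM at 24 h (-0.60, adjusted p = 0.0558), and the light-strand mRNA mt-Nd6 403 and 381 CPM and 293 and 238 CPM (-0.56, adjusted p = 0.0514). Both missed the threshold in this fit, with groups that did not overlap, and both were called by DESeq2 (adjusted p = 0.00475 and 0.0142) and by edgeR with no count filter or with a replicate block. The 7 calls rested in part on single libraries. With TT-seq DMSO replicate 1 or either 24 h replicate left out fewer members were called, and without DMSO replicate 2 more. Fewer of all genes were called lower in each of these fits than in the main one. mt-Nd5, mt-Cytb and mt-Co1 were called in each of these fits.

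Compared directly, nascent levels at 24 h stood below those at 6 h in all 9 members, with log2 differences from -0.73 (mt-Nd6) to -1.12 (mt-Nd5). None was called in the edgeR fit with the count filter and group as its only term, where the percentage of all genes called lower was 0.00 and the lowest adjusted p of a member was 0.071. All 9 had an unadjusted p under 0.05, as had 1922 of all genes. The calls depended on the fit, since all 9 were called by edgeR with no count filter, with 251 lower and 494 higher of 36394 genes, and by DESeq2, with 90 lower and 59 higher of 17870. All 9 were also called by edgeR with a replicate block, with 124 genes lower and 94 higher. The labels do not say that replicate numbers pair samples. In CPM, mt-Nd5 went from 1409.7 and 1547 at 6 h to 634 and 729 at 24 h, and mt-Nd6 from 414 and 467 to 293 and 238, with no overlap in either.

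Of the steady-state mtDNA transcripts, 6 of the 7 mRNAs were lower by 72 h of depletion, and neither rRNA was called. After 24 h 2 of 9 members, mt-Nd5 and mt-Cytb, were lower, where 3.41% of the 13925 tested genes were called lower and 2.32% higher (edgeR glmTreat against a fold change of 1.5, adjusted p under 0.01). Under the TT-seq rule 7 members were lower at 24 h, with 1187 of all genes lower and 1591 higher. After 48 h 5 members were lower, against 7.71% of all genes lower and 10.5% higher, and after 72 h 6 members, against 12.0% and 13.7%. The median log2 change of the members was -0.62, -0.89 and -1.21 in this order, while that of all genes lay between 0.013 and 0.017. DESeq2 called neither mt-Nd5 nor mt-Cytb at 24 h, and mt-Nd4 was not called at 48 h with library size as the only scaling. The 3 time points share their DMSO libraries. The summed level of the stem cell markers was 5559 to 5666 CPM in DMSO and 4085 to 4136 CPM at 72 h. Over the same span the neural and RA markers went from 102 to 105 CPM to 74.6 to 76.0 CPM, the 4 primed epiblast markers from 123 to 132 CPM to 107 to 109.5 CPM, the 5 primitive endoderm markers from 6.15 to 6.56 CPM to 14.9 to 15.3 CPM and the 4 mesoderm markers from 9.18 to 9.62 CPM to 16.8 to 18.1 CPM. The 5 markers of 2-cell-like cells went from 0.641 to 0.918 CPM to 1.64 to 2.59 CPM. Their part in these changes was not tested.

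mt-Co1 fell most by 72 h. Its DMSO libraries had 8921 and 9666 CPM, those of 24 h 6225 and 6449.6, those of 48 h 3875 and 4236 and those of 72 h 2613 and 2743, and each pair lay below the one before. It was 3.47-fold lower at 72 h than in DMSO (log2 -1.80, -1.89 to -1.70, adjusted p = 6.04e-20). mt-Cytb followed the same order, from 2124 and 2415 CPM through 1276 and 1319 and 906 and 995 to 721 and 691 (-1.69, adjusted p = 4.07e-18). mt-Nd5 went from 2031 and 2262 CPM to 1153 and 1181, 813 and 932 and 703 and 694 (-1.62, adjusted p = 2.24e-17). These 3 mRNAs were also called lower between 24 and 72 h, with log2 differences of -1.24, -0.88 and -0.74, where 6.60% of all genes were called lower and 7.53% higher.

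The complex I mRNAs mt-Nd1 and mt-Nd4 fell less. mt-Nd1 went from 3106 and 3613 CPM in DMSO to 2162 and 2192, 1663 and 1755 and 1472 and 1442 (-1.21 at 72 h, adjusted p = 1.30e-12), and mt-Nd4 from 966 and 979 CPM to 626 and 636, 492 and 556 and 422 and 416 (-1.21, adjusted p = 1.03e-13). Their 95% intervals at 72 h did not reach those of mt-Co1, mt-Cytb and mt-Nd5. mt-Nd2 stayed nearly level between the depleted time points, at 884 and 895, 828 and 903 and 807 and 808 CPM against 1202 and 1427 CPM in DMSO, and it was not called at 72 h (-0.70, adjusted p = 0.0145).

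The light-strand mRNA mt-Nd6 was called at 72 h alone, from few reads. Its counts were 164 and 473 in DMSO and 70 and 140 at 72 h, or 15.1 and 33.7 CPM and 6.48 and 9.55 CPM (-1.61, -2.11 to -1.12, adjusted p = 0.00012). The 2 DMSO libraries differed more than in any other member here, and without DMSO replicate 2 the change was -0.87 with an adjusted p of 0.0822, while DESeq2 gave an adjusted p of 0.181. Neither rRNA was called at any time of the course. Libraries of mt-Rnr1 had 348 and 216 CPM in DMSO, then 227 and 214, 254 and 267 and 176 and 175 with longer depletion. The corresponding values of mt-Rnr2 were 445 and 297, 221 and 216, 324 and 341 and 293 and 284 CPM. DMSO replicate 1 stood high for both, and it also had the highest summed level of the listed RNAs without poly(A) tails, at 10.7 CPM against 2.28 to 5.55 CPM in the other 7 libraries of the table, a sum that rests on 1 or 2 detected genes of 9. Without it the log2 changes at 48 h were 0.27 for mt-Rnr1 and 0.16 for mt-Rnr2, in place of -0.10 and -0.15. The part of such RNAs in the rRNA values was not tested.

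**Figure D2:**
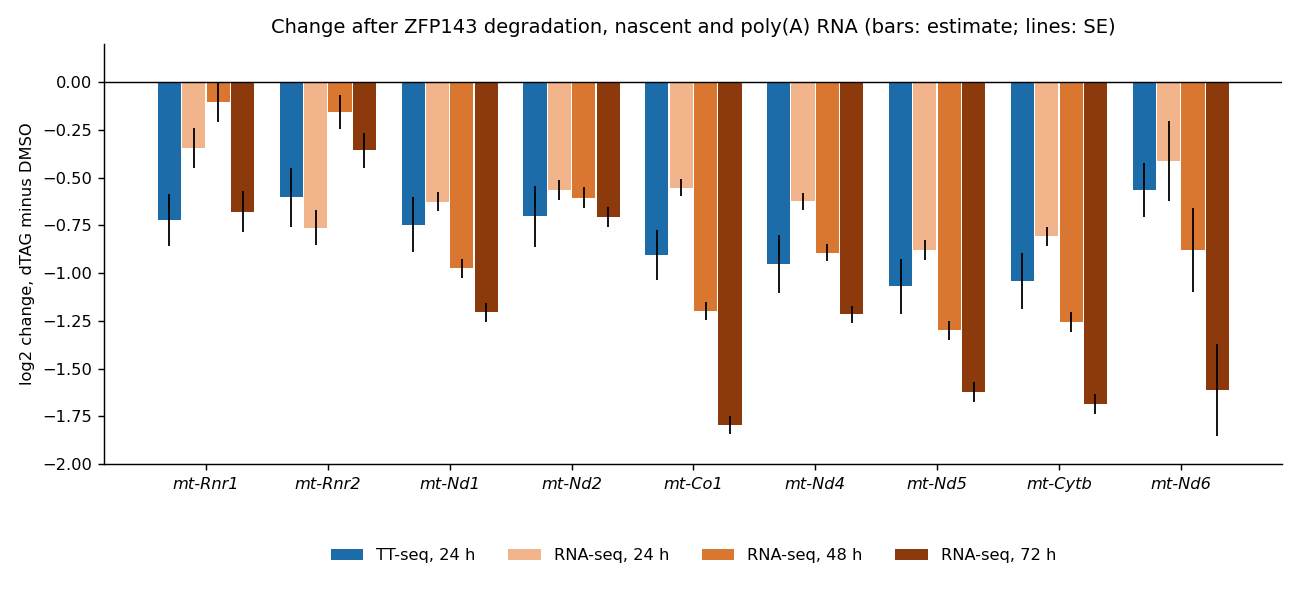
Log2 change of each member against DMSO (bars, lines ± SE) in TT-seq at 24 h and in RNA-seq at 24, 48 and 72 h. The heavy-strand mRNAs lie lower at each later time in RNA-seq, down to -1.80 for mt-Co1 and, with the smallest steps, -0.70 for mt-Nd2, and the rRNAs go no lower than -0.76 in RNA-seq.

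Set side by side at 24 h of depletion, the change was larger in nascent than in steady-state RNA for 8 of the 9 members, all but mt-Rnr2. This order depended on single libraries for mt-Nd1, mt-Nd2, mt-Nd6 and mt-Rnr2, which changed places with 1 library of either assay left out, and the RNA-seq change of mt-Nd6 then ran from -0.84 to 0.32. The change was -0.90 in TT-seq and -0.55 in RNA-seq for mt-Co1, -0.95 and -0.62 for mt-Nd4, and -0.56 and -0.41 for mt-Nd6. For mt-Rnr2 it was -0.60 and -0.76. The SEs were 0.13 to 0.16 in TT-seq and 0.045 to 0.21 in RNA-seq, and the difference between the assays was not tested.

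The ratios between the classes were taken within each library, as the difference of mean log2 counts. The spread given with a change is the SD pooled over the 4 groups of the table, carried through to a difference of single libraries, and no test was made. The rRNA to heavy-strand mRNA ratio was 1.48 and 1.38 in the TT-seq DMSO libraries and 1.83 and 1.53 at 24 h, a difference of 0.25 with a spread of 0.24. In RNA-seq it was -2.53 and -3.32 in DMSO, -2.74 and -2.83 at 24 h, inside the DMSO pair, -1.96 and -2.03 at 48 h and -2.04 and -2.06 at 72 h, which is 0.88 above DMSO with a spread of 0.40. The mt-Nd6 to heavy-strand ratio in TT-seq was -1.51 and -1.43 in DMSO and -0.88 and -1.39 at 24 h, where the 2 libraries lay further apart than at any other time. In RNA-seq it was -7.24 and -6.23 in DMSO and -7.17 and -6.60 at 72 h, and the groups overlapped.

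Before RA, 0 of 9 members were called, where 3.66% of the 15915 tested genes were called lower and 2.74% higher, and no member had an unadjusted p under 0.05 in the test against 1.5-fold or a call by DESeq2. The log2 changes ran from -0.63 (mt-Nd6) to 0.35 (mt-Rnr1), with a median of -0.24. For mt-Nd5 (-0.53, -0.73 to -0.33), mt-Cytb (-0.49, -0.72 to -0.26), mt-Nd4 (-0.39, -0.61 to -0.18), mt-Co1 (-0.24, -0.43 to -0.055) and mt-Nd6 (-1.02 to -0.25) the 95% interval lay below 0 and the groups did not overlap. For mt-Rnr1 (0.082 to 0.63) it lay above 0, again without overlap. Under the call rule of TT-seq, which tests against no change, mt-Nd5 and mt-Nd6 were called, with 1342 of all genes lower and 2302 higher. After RA, 8 of 9 members were lower in dTAG than in DMSO, all but mt-Nd2, against 7.36% of all genes lower and 9.10% higher, and the median was -1.38. Before RA the DMSO and dTAG cells had been treated for 24 h as in the time course, in which the median at 24 h was -0.62. Their cell type markers all stood apart. From DMSO to dTAG stem cell markers went from 6644 to 6852 CPM to 5708 to 5738 CPM, primed epiblast from 189 to 204 to 162 to 167. Neural and RA markers went from 82.5 to 85.6 to 68.4 to 74.5, mesoderm from 16.6 to 17.0 to 12.4. Primitive endoderm rose from 4.09 to 5.04 to 7.74 to 10.0, and 2-cell-like from 1.49 to 3.04 to 6.38 to 6.49. Their part was not tested. DESeq2 called 5 members after RA, without mt-Rnr1, mt-Rnr2 and mt-Nd4, with 765 of all genes lower and 789 higher. The call of mt-Nd4 was also lost with library size as the only scaling and without the DMSO RA library of replicate 2.

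In control cells RA split the members. mt-Nd1, mt-Nd2, mt-Nd4 and mt-Cytb fell, mt-Rnr1 rose, and mt-Rnr2, mt-Co1, mt-Nd5 and mt-Nd6 were not called, where 18.1% of all genes were called lower and 25.8% higher. mt-Nd1 had 4376 and 3590.5 CPM before RA and 734 and 967 CPM after it, 4.68-fold lower (log2 -2.23, SE 0.11, adjusted p = 2.32e-12). mt-Nd2 fell from 1768 and 1445 CPM to 342 and 483 CPM (-1.96, adjusted p = 1.08e-10). mt-Nd4 fell from 1412 and 1214 CPM to 372 and 513 CPM (-1.57, adjusted p = 3.28e-09), and mt-Cytb from 3948 and 3258 CPM to 1108 and 1555 CPM (-1.44, adjusted p = 8.03e-08). These are the 4 mRNAs whose 3′ ends, printed above, abut a tRNA of the same strand. The match was seen after the values, and the part of the 3′ ends was not tested. In depleted cells, below, the mRNAs were lower after RA whatever follows them.

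mt-Co1, by contrast, had 9904 and 7991 CPM before RA and 10250 and 10655 CPM after it in DMSO (0.22, 0.035 to 0.41), and mt-Nd5 2386 and 1780.2 CPM and 1773 and 1911 CPM (-0.18, -0.38 to 0.023). The groups of mt-Nd5 overlapped, and those of mt-Co1 did not. mt-Nd6 had 23.4 and 17.5 CPM and 28.4 and 26.2 CPM (0.42, 0.053 to 0.78). No tRNA of the same strand follows these 3 coding ends directly. The 12S rRNA rose from 184 and 116 CPM to 407 and 476 CPM (1.56, adjusted p = 1.03e-07), while the 16S rRNA had 429 and 306 CPM and 424 and 531 CPM, with groups that overlapped (0.38, 0.14 to 0.61).

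The split can be given as the log2 ratio, within each library, of the mean level of mt-Co1 and mt-Nd5 to that of mt-Nd1, mt-Nd2, mt-Nd4 and mt-Cytb. The 2 sets were chosen after the values had been seen, so the ratio is a description. In DMSO it was 0.92 and 0.83 before RA and 2.91 and 2.53 after, and in dTAG it was 0.77 and 0.84 before and 1.16 and 1.07 after. In the time course it stood at 1.36 and 1.32 in DMSO, 1.00 and 1.04 at 48 h and 0.81 and 0.86 at 72 h of dTAG. In TT-seq all 8 libraries lay between 0.25 and 0.47. Poly(A) selection reads level and tail together, and the part of tail length in these ratios was not tested.

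In depleted cells all 7 mRNAs were lower after RA than before it, and neither rRNA was called, where 18.5% of all genes were called lower and 25.0% higher. The libraries after RA had also seen 24 h more of dTAG, so RA and the longer depletion cannot be told apart here. The median over the members was -2.22, against -0.18 in DMSO. mt-Nd1 fell from 3439 and 3462 CPM to 358 and 385 CPM, 9.29-fold (-3.22, adjusted p = 4.15e-15). mt-Cytb fell from 2553 and 2575 CPM to 347 and 341 CPM (-2.90, adjusted p = 6.49e-14), and mt-Co1, not called in DMSO, from 7353 and 7759 CPM to 1394 and 1278 CPM (-2.50, adjusted p = 3.34e-14). In these 3 mRNAs the 2 RA libraries of depleted cells lay below every other library of the table. The same held for mt-Nd5, which went from 1406 and 1478 CPM to 314 and 314 CPM (-2.20), for mt-Nd4, from 1001 and 998 CPM to 219 and 209 CPM (-2.22), and for mt-Nd2, from 1444 and 1446 CPM to 285 and 306 CPM (-2.29). mt-Nd6 fell from 15.8 and 10.9 CPM to 1.99 and 4.28 CPM, or from 304 and 274 counts to 41 and 92 (-2.06, -2.55 to -1.58, adjusted p = 1.44e-06). For the rRNAs the levels were 192 and 191 CPM and 181 and 157 CPM in mt-Rnr1 (-0.18, -0.45 to 0.093) and 314 and 310.5 CPM and 213 and 217 CPM in mt-Rnr2 (-0.54, -0.77 to -0.30).

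**Figure D3:**
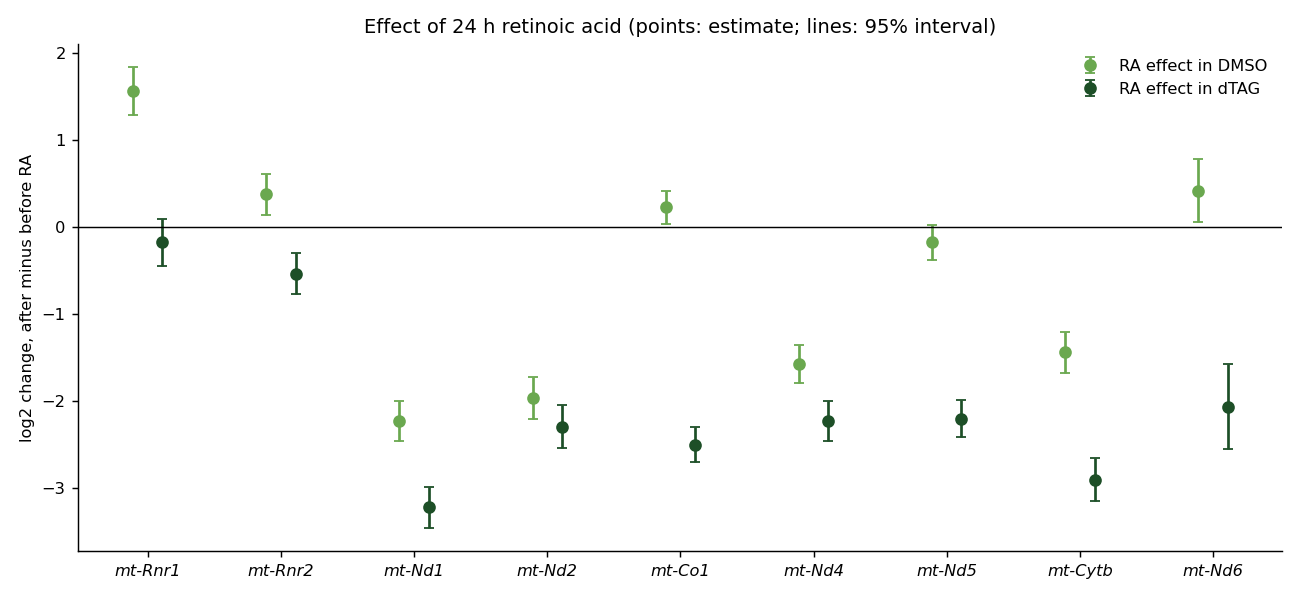
Log2 change of each member from before to after RA (points, lines 95% interval), in DMSO (light) and dTAG (dark). In DMSO mt-Nd1, mt-Nd2, mt-Nd4 and mt-Cytb lie far below 0 and mt-Rnr1 above it, and in dTAG all 7 mRNAs lie below -2.06 or at it.

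The difference between the 2 RA effects was tested as an interaction, in which 8 members, all but mt-Nd2, were called more negative in dTAG, where 18.0% of all genes were more negative and 13.7% more positive. The greatest difference was that of mt-Co1, -2.72 (-3.00 to -2.45, edgeR adjusted p = 7.04e-12), followed by mt-Nd6 at -2.48 (-3.09 to -1.87, adjusted p = 9.52e-07) and mt-Nd5 at -2.02 (-2.31 to -1.73, adjusted p = 6.21e-10). These are the 3 mRNAs that RA had not lowered in DMSO. The longer time in dTAG after RA is part of each difference and cannot be told apart from RA. mt-Rnr1 differed by -1.74, mt-Cytb by -1.46, mt-Nd1 by -0.99, mt-Rnr2 by -0.91 and mt-Nd4 by -0.65. For mt-Nd2 the difference was -0.33 (-0.66 to 0.0069, adjusted p = 0.107). With DESeq2, mt-Nd4 was not called (adjusted p = 0.0521). Without the DMSO RA library of replicate 1, mt-Nd2 was called too, at -0.55, and without that of replicate 2, mt-Nd4 was not, at -0.41.

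The rRNA to heavy-strand mRNA ratio was higher after RA in both conditions, with no overlap. It went from -3.50 and -3.77 to -1.42 and -1.48 in DMSO and from -3.20 and -3.24 to -0.98 and -1.07 in dTAG, by 2.19 and 2.19, and the 2 differences were apart by 0.0074 with a spread of 0.21. The mt-Nd6 to heavy-strand ratio went from -7.09 and -7.20 to -5.29 and -5.74 in DMSO and from -7.16 and -7.72 to -7.60 and -6.50 in dTAG, where the groups overlapped. Other values moved with RA as well. The listed RNAs without poly(A) tails summed to 0.802 to 1.66 CPM before RA and 4.76 to 7.12 CPM after it, over both conditions, again from 1 or 2 detected genes of 9. The stem cell markers stood at 705 to 1041 CPM in DMSO and 1368 to 1610 CPM in dTAG, the 6 neural and RA markers reached 321 to 365 CPM and 208 to 222 CPM from 68.4 to 85.6 CPM, and the 5 markers of 2-cell-like cells reached 42.2 to 42.3 CPM and 154 to 183 CPM from 1.49 to 6.49 CPM. The primitive endoderm markers had 4.09 to 10.0 CPM before RA and 30.02 to 31.7 CPM in DMSO and 52.0 to 54.9 CPM in dTAG after it. The primed epiblast markers had 162 to 204 CPM before and 81.6 to 92.9 CPM and 75.4 to 80.9 CPM after, and the mesoderm markers 12.4 to 17.0 CPM before and 9.10 to 9.14 CPM and 10.8 to 12.1 CPM after. All markers of these lists were detected after RA. Their part in the change of the mtDNA transcripts was not tested.

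**Figure D4:**
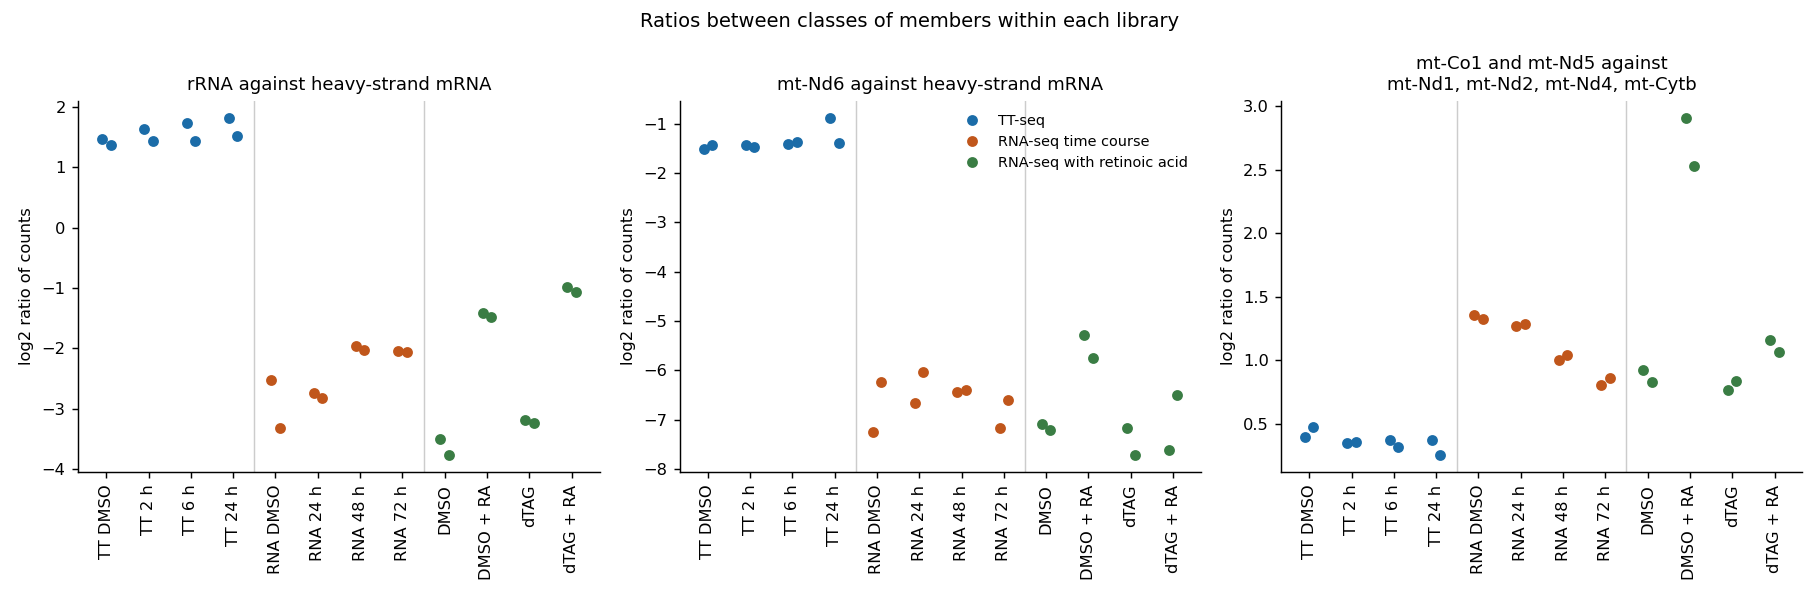
Log2 ratio of class means within each of the 24 libraries (points), for rRNA against heavy-strand mRNA, mt-Nd6 against heavy-strand mRNA, and mt-Co1 with mt-Nd5 against the 4 other heavy-strand mRNAs. The left panel shows higher ratios after RA in both DMSO and dTAG, and the right panel the rise to 2.91 and 2.53 in DMSO with RA alone.

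The tRNAs of mtDNA, cut from the same precursors, were measured in TT-seq, where 17 of the 22 passed the filter, 10 of heavy-strand and 7 of light-strand transcripts. In both RNA-seq tables none had more than 17 counts in a library. In TT-seq a read from an uncut precursor counts for the tRNA and for its neighbours. After 6 h 2 of the 10 heavy-strand tRNAs, mt-Tf and mt-Tv, and 1 of the 7 light-strand tRNAs, mt-Tp, were called higher. The changes were 0.89, 0.91 and 0.96 (edgeR, highest adjusted p = 0.0465). mt-Tf lies before mt-Rnr1 and mt-Tv between the rRNAs. At 6 h 0 of the 9 members were called higher, and 0.397% of all genes were. After 24 h mt-Tl1, between mt-Rnr2 and mt-Nd1, and mt-Tm, before mt-Nd2, were lower. These were 2 of the 10 heavy-strand tRNAs, where 4.09% of all genes were called lower. mt-Tl1 had 301 and 276 CPM in DMSO and 159.7 and 151 CPM at 24 h (-0.89, adjusted p = 0.0032), and mt-Tm 62.1 and 47.4 CPM and 32.3 and 33.7 CPM (-0.73, adjusted p = 0.0332).

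At 24 h the estimates against DMSO divided by strand in their sign. All 10 heavy-strand tRNAs had negative estimates, with a median of -0.45, and all 7 light-strand tRNAs had positive ones, from 0.15 to 0.47, of which none was called. Some of the light-strand tRNAs had few reads. In DMSO the lowest had 8 and 21 counts and the highest 301 and 319, and the SEs at 24 h were 0.21 to 0.41. Summed over all 14 of their strand, tested or not, the heavy-strand tRNAs had 639.9 and 521 CPM in DMSO and 369.7 and 364.9 CPM at 24 h, and the 8 light-strand tRNAs 66.2 and 55.8 CPM and 86.7 and 64.8 CPM, where the groups overlapped. mt-Nd6, on the light strand as well, had a negative estimate (-0.56). Between 6 and 24 h all 17 estimates were negative, with medians of -1.10 for the heavy-strand and -0.62 for the light-strand tRNAs, in an edgeR fit that called 0.00% of all genes in either direction. The light-strand medians against DMSO had been 0.47 at 2 h and 0.93 at 6 h, above the 0.21 at 24 h. Neighbouring genes share reads and precursors, so the tRNAs are not independent points.

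**Figure D5:**
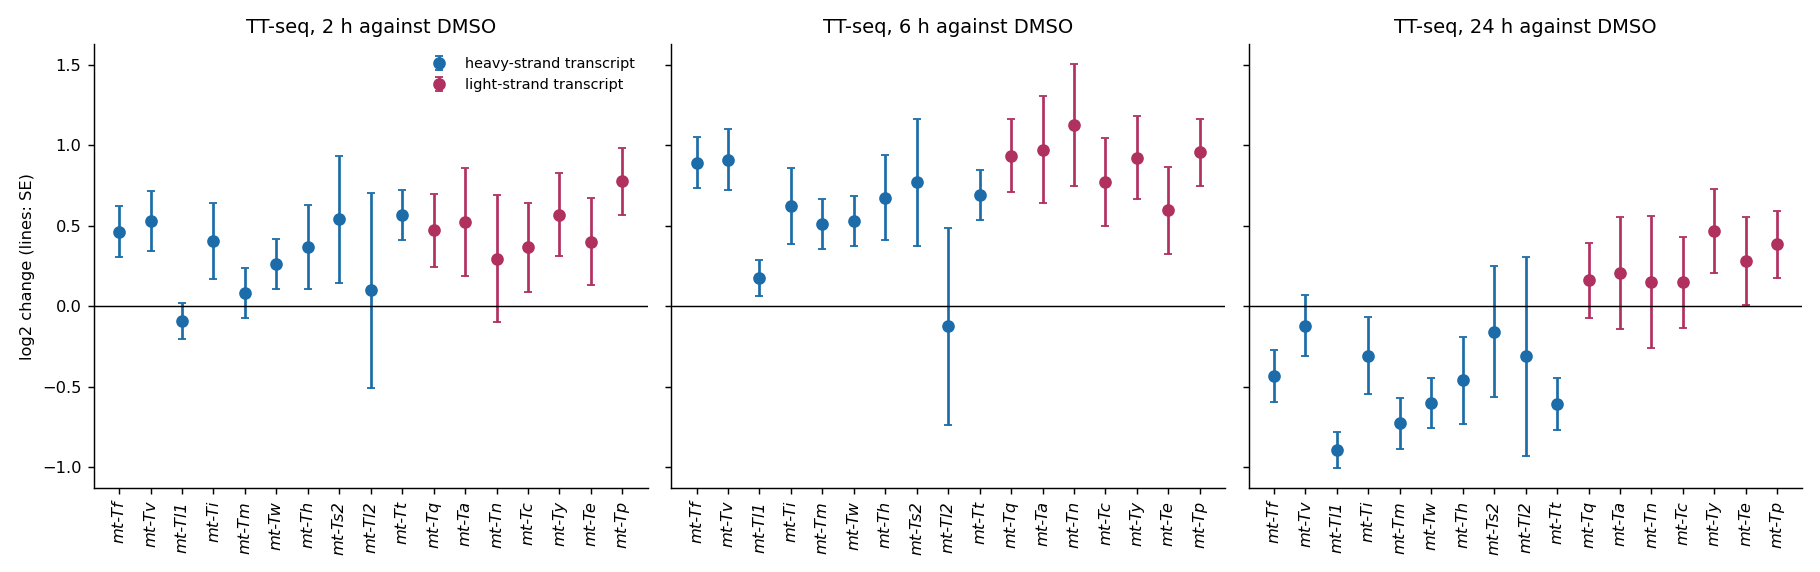
Log2 change (points, lines ± SE) of the 17 tested mtDNA tRNAs in TT-seq at 2, 6 and 24 h of dTAG against DMSO, heavy-strand transcripts in blue and light-strand transcripts in red. At 24 h all blue points lie below 0 and all red points above it.

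Of 39 listed nuclear genes whose products copy and transcribe mtDNA or process its RNA, 38 were tested. In nascent RNA 2 were lower at each of 2, 6 and 24 h, and 0 higher, where 2.43%, 2.83% and 4.09% of all genes were lower. In steady-state RNA 4, 6 and 8 were lower at 24, 48 and 72 h and 0 higher, where 3.41%, 7.71% and 12.0% of all genes were lower, with a median of -0.091 at 72 h. RA lowered 19 and raised 2 in DMSO, and lowered 19 and raised 3 in dTAG, where 18.1% and 18.5% of all genes were lowered and 25.8% and 25.0% raised. Between dTAG and DMSO, 3 were lower and 0 higher before RA, against 3.66% of all genes lower. After RA, when 8 of the 9 mtDNA members were lower in dTAG, 1 of these nuclear genes was called, as higher, Fastkd3, a mitochondrial RNA-binding protein named here after its value was seen, where 9.10% of all genes were higher. The interaction was more negative for 4 and more positive for 6, where 18.0% and 13.7% of all genes were. The greatest called decrease in TT-seq at 24 h was that of Fastk, an RNA-binding protein of mitochondria known for its part in the ND6 mRNA. It fell from 30.9 and 22.8 CPM to 6.39 and 5.70 CPM at 24 h (-2.15, edgeR adjusted p = 0.00135), and was already lower at 2 h (-1.39, adjusted p = 0.00964), when no member was called. In RNA-seq at 72 h the log2 change of Fastk was -1.19. The greatest called decrease there was that of Tfb1m, the methyltransferase of the 12S rRNA (-1.75, adjusted p = 4.79e-09).

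Tfam, which packages mtDNA and starts its transcription, had 47.1 and 48.2 CPM in TT-seq DMSO and 34.9 and 31.5 CPM at 24 h (-0.52, edgeR adjusted p = 0.0505, DESeq2 0.0844), and 103 and 108 CPM and 64.8 and 64.7 CPM in RNA-seq DMSO and at 72 h (-0.70, edgeR adjusted p = 0.0207, DESeq2 0.401). Its groups stood apart in both, and neither tool called it in either. At TT-seq 2 h it had 31.1 and 32.7 CPM (-0.58, edgeR adjusted p = 0.0601), also apart from DMSO and not called. Polrmt, the polymerase, had 65.7 and 64.6 CPM in RNA-seq DMSO and 90.1 and 89.0 CPM at 72 h (0.46, edgeR adjusted p = 1, not called). Its RA effect was more positive in dTAG than in DMSO by 0.87 (adjusted p = 1.88e-06), from levels of 47.7 and 45.4 CPM after RA in DMSO and 74.4 and 69.3 CPM in dTAG. Tfb2m was lowered by RA in DMSO, from 9.40 and 11.0 CPM to 5.56 and 4.84 CPM (-0.95, edgeR adjusted p = 0.00875), a call that DESeq2 did not make (adjusted p = 0.16).

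The nuclear genes whose log2 CPM followed the mean of the 9 members most closely over the 8 libraries of a table were Rcn1, Zfp846 and Fut10 in TT-seq (Pearson r = 0.990, 0.982 and 0.980 among 10812 genes), Eef1a1, Bcl2l12 and Pa2g4 in the time course (0.996, 0.995 and 0.995 among 9791) and Flna, Sms and Seh1l in the RA table (0.997, 0.996 and 0.994 among 11335). The 8 points form 4 treatment groups that share depth and controls, so these values are a description.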

How the data were processed

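The authors deposited 3 tables of raw read counts per gene, 1 each for TT-seq, the RNA-seq time course and the RNA-seq with RA. The authors aligned reads to mm10 (STAR, GENCODE vM25 genes). TT-seq reads were kept where uniquely placed, freed of duplicates, split by strand and assigned with HTSeq to every gene they overlap. RNA-seq counts came from STAR itself, and the strand setting is not given in the sources used here. Tables of 4C and lists of CTCF and ZFP143 peaks were not used here. Symbols were found for 55141 of the 55401 genes.

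Counts were fitted with edgeR 4.0.16 (limma 3.58.1, R 4.3.3), 1 fit per table with its 4 groups, keeping a gene if 4 or more of the 8 libraries exceeded 10 counts, scaled by TMM. TT-seq contrasts and the interaction used the quasi-likelihood test and a call needed a log2 change beyond 0.5 either way with an adjusted p under 0.05. For RNA-seq the test was glmTreat against 1.5-fold, at an adjusted p under 0.01. P-values were adjusted after Benjamini and Hochberg over all genes tested, and the scripts were tested on simulated data. CPM are counts scaled by library size and TMM, with a prior count of 2 on the log2 scale. No pair of libraries held identical values. The common biological coefficient of variation was 17.2%, 3.65% and 5.92% for the 3 tables. Intervals are at 95%.

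Uniqueness was read from 32-base windows of the mm10 genome on both strands, and longer reads can be placed where these windows cannot, so it ranks genes only. The replicate numbers of the labels do not say that they pair samples. Alternatives were other scaling, no count filter, DESeq2 1.42.0, the call rules swapped between assays, a replicate block, and each replicate left out. Named were the 9 members, Zfp143, the other mtDNA genes by counts, Tfam, Tfb2m, Polrmt, the called nuclear gene with the greatest decrease at 24 h in TT-seq and at 72 h in RNA-seq, and per table the 3 genes most like the mean of the members; the tRNAs named were those called. The members and lists were chosen with earlier results of these data known.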

Additional observations from a re-analysis of the deposited data

Results flagged for a closer look

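The effect of RA differed between DMSO and depleted cells, by the interaction test of edgeR over all genes, in 8 of the 9 members. Of all genes 18.0% were more negative in dTAG and 13.7% more positive. The differences, RA effect in dTAG minus RA effect in DMSO on the log2 scale, were -2.72 for mt-Co1, -2.48 for mt-Nd6, -2.02 for mt-Nd5, -1.74 for mt-Rnr1, -1.46 for mt-Cytb, -0.99 for mt-Nd1, -0.91 for mt-Rnr2 and -0.65 for mt-Nd4. The depleted libraries had 24 h more of dTAG after RA than before it, so more time in dTAG and the combination with RA cannot be told apart. Both groups compared before RA had seen 24 h, and the time course without RA gave a median of -0.89 over the members at 48 h of dTAG.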

How the results depend on the processing

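Members called were 0 at TT-seq 24 h with the call rules swapped between assays, with 116 of all genes lower in place of 730. At TT-seq 24 h minus 6 h they were 9 with no count filter, with DESeq2 and with a replicate block, in place of 0. Of all genes 251, 90 and 124 were then lower, in place of 0. At RNA-seq 24 h the members called were 1 with library size alone, 0 with DESeq2 and 7 with the rules swapped. Of all genes 385, 335 and 1187 were then lower, in place of 475. The swapped rules also gave 6 between RNA-seq 24 and 72 h, 2 before RA and 5 for the interaction. Of all genes 2332, 1342 and 700 were then lower, in place of 919, 583 and 2863. DESeq2 gave 5 members after RA, with 765 of all genes lower in place of 1171. Library size alone, under which the median of all genes became 0.15 to 0.39 in the RNA-seq contrasts of dTAG with DMSO and of RA, in place of 0.0018 to 0.065, gave member medians of -0.69 at 48 h, -1.0 at 72 h and -1.83 for RA in dTAG, and changed the sign of uncalled members, to 0.099 (mt-Rnr1) and 0.048 (mt-Rnr2) at 48 h, 0.14 (mt-Nd5, RA in DMSO) and 0.21 (mt-Rnr1, RA in dTAG). Without mt-Nd5 the rRNA to heavy-strand ratio after RA was higher in dTAG than in DMSO by 0.25, in place of 0.43. Its change with RA in DMSO was then 2.39, in place of 2.19. With uniquely placeable lengths the shares per kb were 57.2% heavy-strand mRNA, 36.9% rRNA and 5.88% mt-Nd6 in TT-seq, 97.7%, 2.09% and 0.182% in the time course, and 98.4%, 1.43% and 0.143% in the RA table.

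Over all genes, library size alone called 1109 lower and 2736 higher at 72 h, in place of 1677 and 1912. The replicate numbers deviated together in TT-seq (r = 0.19 to 0.63), where a replicate block called 9 members at 24 h, with mt-Rnr2 and mt-Nd6 at adjusted p = 0.0265 and 0.0226 (edgeR), and, for 24 h minus 6 h, 124 genes lower and 94 higher over all genes in place of 0, and not in the RNA-seq tables (-0.042 to 0.062 and -0.099 to 0.13). With each replicate left out in turn, members called ran from 3 to 8 at TT-seq 24 h and from 1 to 3 at RNA-seq 24 h, and the median at RNA-seq 48 h from -1.08 to -0.81. Single uncalled members crossed 0 in these fits. At RNA-seq 24 h mt-Rnr1 ran from -0.66 to 0.031 and mt-Nd6 from -0.84 to 0.32, at 48 h mt-Rnr1 from -0.42 to 0.27 and mt-Rnr2 from -0.42 to 0.16, before RA mt-Rnr2 from -0.46 to 0.029 and mt-Nd2 from -0.29 to 0.0005, and for RA in DMSO mt-Nd5 from -0.37 to 0.049. The cause of these differences was not tested.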
